A study of Macaca mulatta with 39 samples.

Results

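Fibroblasts grown out of teratomas of the rhesus macaque embryonic stem cell (ESC) line C3806 were set against fibroblasts grown out of teratomas of line C3106. Line C3806 is female and gave 3 teratoma cultures (TA38, TB38 and TC38), and line C3106 is male and gave 5 (TA31, TB31, TC31, TD31 and TE31). The comparison used 23 of the 39 arrays of the study, 9 of line 3806 and 14 of line 3106, and 8 of its 13 cell sources. Arrays were chosen by the culture named in their labels, and array TB31c was left out because its profile was that of a skin culture. The study itself set ESCs against fibroblasts from teratomas and from the skin of the lines' parents, with every source on 3 arrays that the series text calls biological triplicates. Each teratoma came from the injection of 1 ESC line into mice with a deficient immune system, so the cells are macaque cells that matured in a mouse host. Each group descends from a single line, and donor genotype, line, sex of the cells and culture history cannot be told apart. No drug, transgene or deletion is given for any of these cultures.

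A teratoma is a tumour of mixed tissues that pluripotent cells form in a host, and its explanted fibroblasts carry the genome of the stem cell line. Fibroblasts make collagen-rich matrix and keep a memory of their body position through homeobox factors. Fibroblasts of different individuals can differ in a few genes through inherited variants that act in every tissue, through imprinting, which silences the copy from one parent, and through X inactivation, which leaves some X genes active on both female copies.

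Signals are given as log2 values per probe set, so a difference of 1 is a doubling of the array signal. Precision is limited by the number of cultures. Each culture was the mean of its arrays, and the means of 3 and 5 cultures were compared. A gene was called when limma's p, adjusted by Benjamini-Hochberg over all 14132 genes, was under 0.05 and the log2 difference was at least 1 in size. A gene was said to separate the lines when all 3 culture means of line 3806 lay above, or all below, all 5 of line 3106. For a single gene an exact permutation test over the 8 cultures cannot give a two-sided p below 0.0357, so the fit across all genes was used. The p-values measure the spread between cultures of these 2 lines, not the spread between animals.

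All 8 cultures had fibroblast profiles. The mean signal of 7 measured fibroblast markers, among them COL1A1, LUM and VIM, lay between 11.97 and 12.22 in line 3806 and between 12.05 and 12.32 in line 3106. POU5F1, the central factor of pluripotency, stayed between 4.68 and 4.90 in line 3806 and between 4.64 and 4.83 in line 3106. Other genes of the pluripotency list were not low. NANOG was between 9.50 and 9.86 and KLF4 between 9.57 and 12.04 over all cultures, and SOX2 varied as given below. The leukocyte markers PTPRC, CD14 and TYROBP averaged 5.98 at most. Markers of skeletal muscle varied within both lines. MYH3, the embryonic muscle myosin, was at 10.22, 9.53 and 5.59 in TA38, TB38 and TC38, against 4.44, 12.18, 7.25, 11.80 and 4.51 in TA31, TB31, TC31, TD31 and TE31. The neural and eye factor PAX6 was at 11.05, 9.58 and 8.88 in line 3806, against 10.29, 5.28, 8.20, 5.25 and 6.37 in line 3106, in the same order of cultures. In bulk samples, fewer cells of a type and less RNA per cell cannot be told apart. The 3′ minus 5′ gap of the actin probe sets, a sign of RNA length, had a median of 0.11 in arrays of line 3806 and 0.18 in arrays of line 3106, and was 0.78 at most.

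Among these 23 arrays, each correlated best with an array of its own culture, with r between 0.994 and 0.998 across genes. Several other arrays of the series went against their labels. TB31c correlated at 0.999 with an array of the skin culture M106p1 and at no more than 0.953 with its own culture. The ESC array C3806c correlated at 0.998 with the teratoma array TC38a and at no more than 0.888 with its own line, and the skin array M106p1f correlated at 0.998 with the teratoma array TD31b. Those arrays enter no teratoma culture mean, ESC comparison or skin culture mean given below unless named. C3806c and M106p1f did enter the fit in which all 13 sources shared 1 estimate of spread. Probe sets were chosen by their signal over all 39 arrays. Across whole profiles, culture means correlated at 0.980 to 0.988 within line 3806 (3 pairs), 0.952 to 0.987 within line 3106 (10 pairs) and 0.966 to 0.989 between the lines (15 pairs), and these ranges overlap.

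Few genes told the lines apart. The median size of a difference was 0.08 log2 units, and the median difference was 0.017. In all, 6 genes were called higher in line 3806, which is 0.0425% of genes, and all 6 are autosomal: SPMAP2, RIT2, PTH2R, KRT81, VIL1 and ERAP1. A further 3 were called lower (0.0212% of genes), the autosomal AMACR and ZNF534 and the X-linked ATP7A. At an unadjusted p under 0.05 there were 782 genes, and 13 had an adjusted p under 0.05 at any size. SPMAP2, RIT2, PTH2R and AMACR were given as markers of the line difference with earlier results of these data in view, so their calls restate a known pattern.

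**Figure D1:**
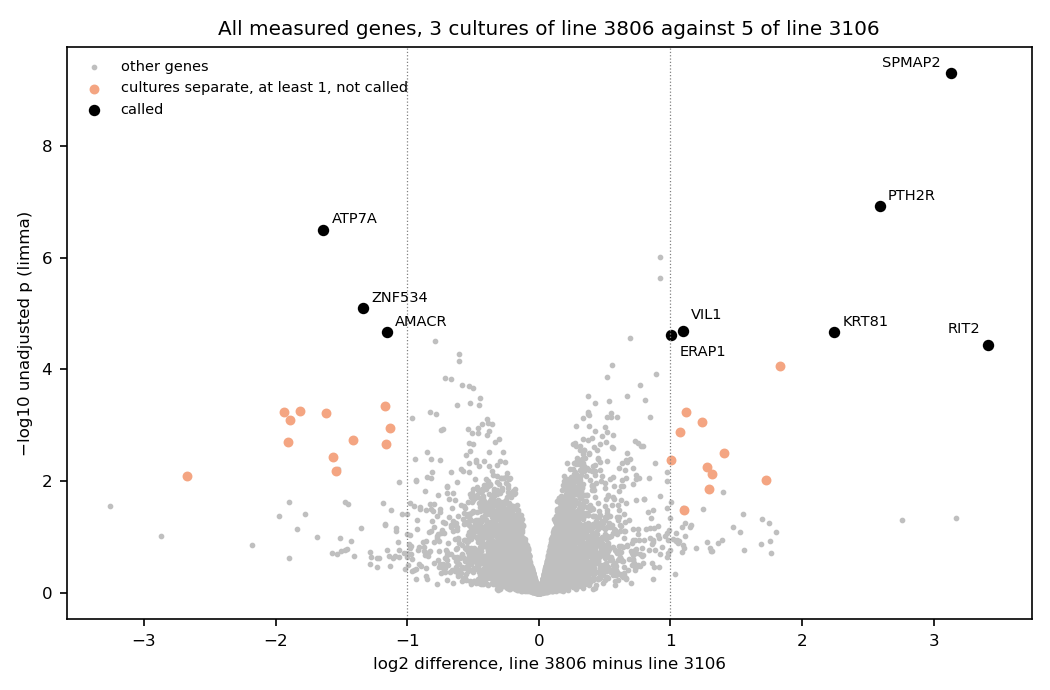
Each point is 1 of 14132 genes. The x axis gives the log2 difference, line 3806 minus line 3106, and the y axis the −log10 of limma's unadjusted p; dotted lines mark a difference of 1. The 9 called genes are black and named, and orange points are the other genes that separate the cultures and differ by at least 1. SPMAP2 lies highest, at a difference of 3.13, and RIT2 lies farthest right, at 3.41.

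SPMAP2, which encodes a sperm microtubule-associated protein, gave the smallest p of all genes (chromosome 19, probe set MmugDNA.13662.1.S1_at). Its signal was 9.57, 9.28 and 9.24 in TA38, TB38 and TC38, against 6.22, 6.21, 6.13, 6.27 and 6.33 in TA31, TB31, TC31, TD31 and TE31. The 5 cultures of line 3106 lay close together, at about the median signal of an array, and the lowest culture of line 3806 lay 2.91 above the highest of them. Means were 9.36 ± 0.18 (SD, n = 3 cultures) in line 3806 and 6.23 ± 0.07 (n = 5) in line 3106, a difference of 3.13 (SE 0.09, limma adjusted p = 7.09e-06) or 8.77-fold. Of 17 measured genes of sperm and the axoneme, the microtubule core of cilia and sperm tails, SPMAP2 alone was called. As SPMAP2 was a given marker, this call was known beforehand, like those of RIT2, PTH2R and AMACR in their lists below. Such single calls are thus no result about the lists, beside 0.0425% of all genes called higher and 0.0212% lower. The sperm and axoneme list had a median of 0.03. Its next separating member, TEKT1, which encodes a tektin of the axoneme, differed by 0.18.

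RIT2, a RAS-like GTPase found mostly in neurons, had the largest difference (chromosome 18, MmugDNA.25088.1.S1_at). Its signal was 9.55, 9.27 and 8.87 in TA38, TB38 and TC38, against 7.01, 5.18, 5.34, 6.15 and 5.41 in TA31, TB31, TC31, TD31 and TE31. TA31 and TD31 stood above the other cultures of line 3106, and the groups did not overlap. The means of 9.23 ± 0.34 (n = 3) and 5.82 ± 0.76 (n = 5) differed by 3.41 (SE 0.42, limma adjusted p = 0.04). DIRAS2, another RAS-like GTPase of the brain, also separated the lines, at 6.36, 5.57 and 5.27 in line 3806 against 4.47, 3.78, 4.90, 4.65 and 3.80 in line 3106, but its difference of 1.41 was not called (adjusted p = 0.41). Within line 3806 both genes were highest in TA38 and lowest in TC38. Among 24 measured RAS-like GTPases RIT2 was the only call, the median was 0.04, and RASD1 at 1.40 and RERG at 1.06 had cultures that overlapped.

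PTH2R, the receptor for the hypothalamic peptide TIP39, was called on chromosome 12 (MmugDNA.18662.1.S1_at). Its signal was 7.99, 7.64 and 7.41 in TA38, TB38 and TC38, against 5.21, 5.21, 4.79, 5.16 and 5.08 in TA31, TB31, TC31, TD31 and TE31. All cultures of line 3106 were low and close together, and the gap to line 3806 was 2.20. The difference was 2.59 (SE 0.15, limma adjusted p = 0.000842), or 6.02-fold. PTH2R, a given marker, was the only one called of 18 measured genes of class B hormone receptors and the parathyroid hormone family. The list median was 0.01, and some members were dim in all cultures, such as PTH at 3.30 or less.

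KRT81 and VIL1 encode proteins of the cytoskeleton. KRT81, a type II keratin of hair (chromosome 11, MmuSTS.1536.1.S1_at), was at 11.53, 10.55 and 10.55 in TA38, TB38 and TC38, against 8.63, 9.09, 8.53, 8.37 and 8.57 in TA31, TB31, TC31, TD31 and TE31. TA38 was the highest culture, the groups did not overlap, and the difference was 2.24 (SE 0.25, limma adjusted p = 0.034). Hair keratins resemble each other closely, so signal from a related gene cannot be told apart here. VIL1, an actin-bundling protein of intestinal microvilli (chromosome 12, MmugDNA.37439.1.S1_at), was at 8.91, 8.61 and 9.11 in line 3806, against 7.83, 7.98, 7.64, 7.73 and 7.74 in line 3106. The groups did not overlap, and the difference was 1.09 (SE 0.12, limma adjusted p = 0.034). Its 4 other probe sets differed by −0.07 to 0.08, and the difference was 0.22 when all probe sets were averaged. The epithelial markers TP63 and CDH1 averaged 6.18 to 6.26 in line 3806 and 6.18 to 6.36 in line 3106, near the array medians of 6.25 to 6.48. Other epithelial genes were bright in some or all cultures. KRT7 was between 9.96 and 12.25 over both lines, DSP between 4.12 and 12.84 and KRT8 between 5.9 and 10.27.

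Enzymes and a transporter made up a further group of calls. ERAP1, which trims peptides in the endoplasmic reticulum for MHC class I (chromosome 6, MmugDNA.41965.1.S1_at), was at 9.35, 9.42 and 9.51 in TA38, TB38 and TC38, against 8.39, 8.32, 8.26, 8.36 and 8.76 in TA31, TB31, TC31, TD31 and TE31. The groups did not overlap, with TE31 nearest to line 3806. ERAP1 differed by 1.01 (SE 0.12, limma adjusted p = 0.0346), just above the limit of 1, and by 1.06 on its other probe set. ERAP2, its neighbour with a like role, differed by 0.08 but was dim in both lines, at a mean of 5.34 in line 3806 and 5.26 in line 3106.

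AMACR, the racemase that prepares branched-chain fatty acids and bile acid precursors for oxidation in peroxisomes (chromosome 6, MmuSTS.3436.1.S1_at), ran the other way. Its signal was 8.94, 8.45 and 8.95 in TA38, TB38 and TC38, against 9.99, 9.87, 9.97, 9.77 and 10.08 in TA31, TB31, TC31, TD31 and TE31, and the groups did not overlap. The difference was −1.16 (SE 0.13, limma adjusted p = 0.034). Another probe set gave −1.13 with groups that did not overlap, and a dim one gave 0.01. Of 13 measured genes of peroxisomal branched-chain oxidation AMACR was the only call, with a list median of −0.00. PEX7, an import receptor of peroxisomes, separated the lines at −0.38 without a call.

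ATP7A, an X-linked copper transporter, was at 6.54, 6.52 and 6.44 in TA38, TB38 and TC38, against 8.19, 8.36, 7.97, 7.94 and 8.22 in TA31, TB31, TC31, TD31 and TE31. The groups lay 1.40 apart, and the difference was −1.64 (SE 0.11, limma adjusted p = 0.0015). ATP7A was the only call among 590 X genes, and it was lower in the female line. ZNF534, a zinc-finger gene of the KRAB family on chromosome 19, was at 6.19, 5.90 and 6.49 in line 3806, against 7.49, 7.44, 7.67, 7.65 and 7.41 in line 3106. The groups did not overlap, and ZNF534 differed by −1.34 (SE 0.13, limma adjusted p = 0.0192). Zinc-finger genes of this family resemble each other, and signal from a related gene cannot be told apart.

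**Figure D2:**
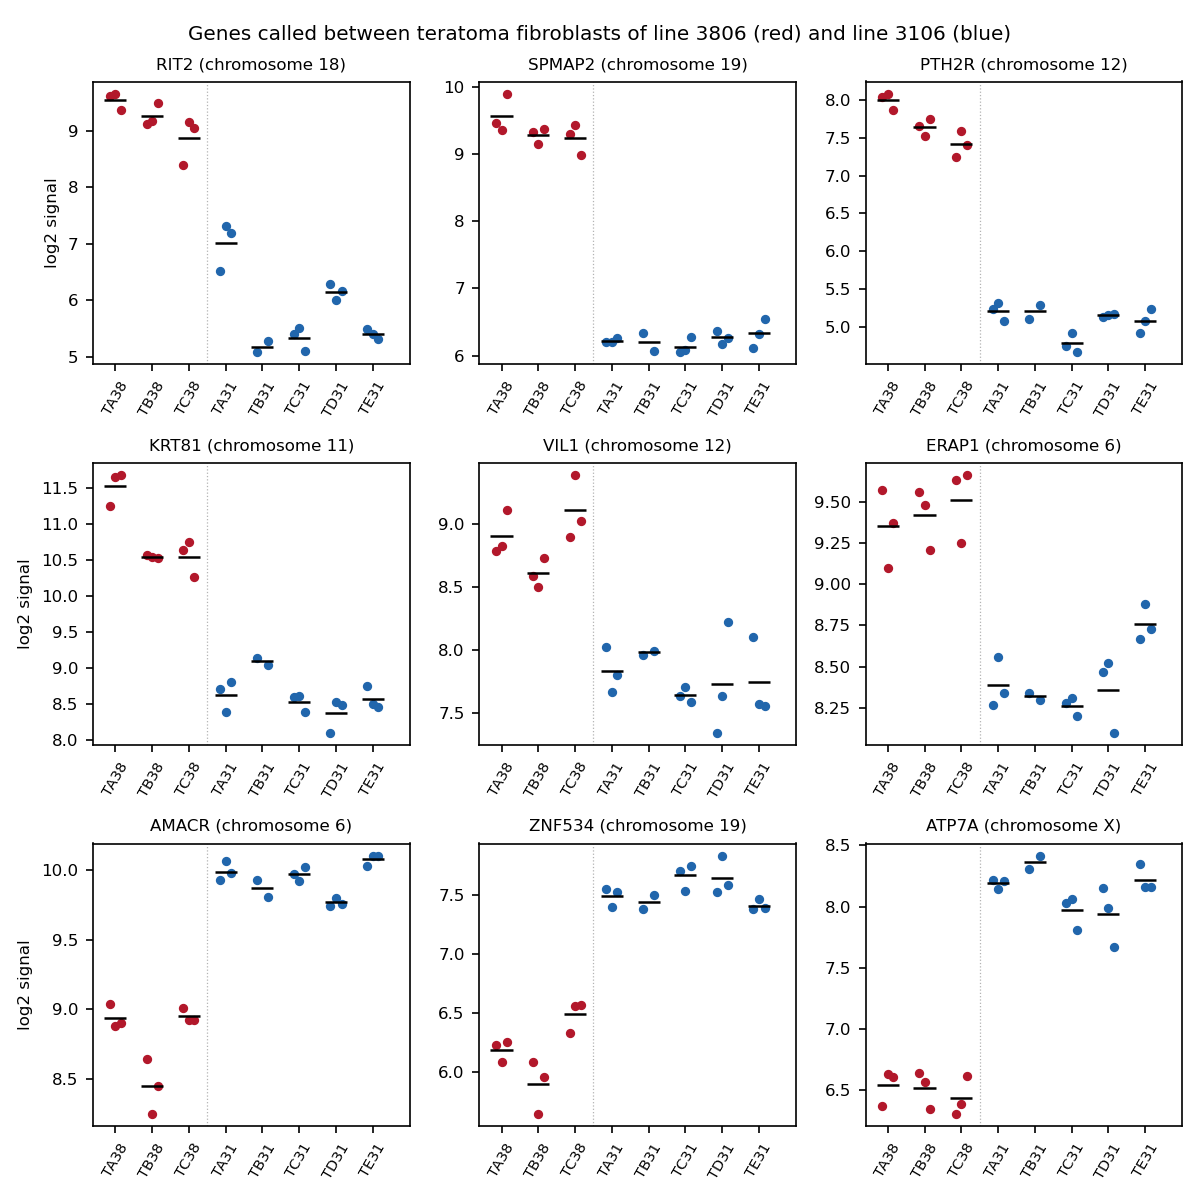
Points are arrays and black bars are culture means of log2 signal, on an axis of its own for each gene that does not start at 0. The 3 cultures of line 3806 are red and stand left of the 5 cultures of line 3106 in blue. In all 9 panels every red bar lies above, or every red bar below, every blue bar, with the narrowest gap for ERAP1 at 0.59 and the widest for SPMAP2 at 2.91.

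The calls differed in how often they were kept when 1 culture was left out, although this moved no called difference by over 1.5 times. SPMAP2, PTH2R and ATP7A were called whichever of the 8 cultures was left out, although ATP7A, like ERAP1 and VIL1, was not called when all 13 sources shared 1 estimate of spread (limma adjusted p up to 0.247 for ATP7A over all settings). ZNF534 was called in 2 of these 8 fits, without TB38 and without TC38. RIT2 was called only without TA31, KRT81 only without TA38, VIL1 only without TB38 and ERAP1 only without TE31, while AMACR was called in none of the 8. RIT2 also lost its call under the variance estimate with trend and robust options, and AMACR, ERAP1 and VIL1 lost theirs with array TB31c included. Over all settings the differences ranged from 3.25 to 3.71 for RIT2, 1.92 to 2.41 for KRT81, 0.96 to 1.09 for ERAP1 and −1.49 to −1.19 for ZNF534. Those of AMACR, at −1.24 to −0.76, and VIL1, at 0.22 to 1.23, moved by over 1.5 times. Both were smallest when all probe sets of the gene were averaged, not when a culture was left out. Without TB31 and TD31, the cultures of line 3106 with the highest muscle markers, the calls were SPMAP2, PTH2R and ATP7A.

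Another 4 genes had an adjusted p under 0.05 below the fold limit, and they are named here after their values were seen. ZNF415, a zinc-finger gene, was higher by 0.92 (limma adjusted p = 0.00342), although its signal was between 3.35 and 4.38 in all cultures, among the dimmest values. MRPL44, a protein of the mitochondrial ribosome, was higher by 0.92 (adjusted p = 0.00667), and its 4 other probe sets gave differences of −0.80 to 0.92. RPUSD4, a pseudouridine synthase of mitochondrial RNA, was higher by 0.70 (adjusted p = 0.0347), and C4H6orf52 was lower by 0.79 (adjusted p = 0.0361). The other probe set of C4H6orf52 gave 0.04.

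The wider set of genes that separated the lines held mostly genes that were not called. Culture means of 579 genes did not overlap at any size of difference, which is 4.1% of all genes. With a difference of at least 1 as well, 17 genes were higher in line 3806 (0.12% of genes) and 15 lower (0.106%). Of these 32, 30 were autosomal, 16 higher and 14 lower, spread over 16 chromosomes, with 4 on chromosome 6 and 3 each on chromosomes 1, 3, 4 and 11. The highest count on a chromosome belonged to chromosome 6, with ERAP1, AMACR, FBXO4 and PRELID2. Just inside the limit of 1 were FOXF2 at 1.005 and ERAP1 at 1.008, and just outside it PYGL at 0.974 and F11R at 0.971.

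Among the separating genes higher in line 3806 without a call, L3HYPDH had the widest gap. L3HYPDH, a dehydratase that acts on hydroxyproline, was at 5.21, 6.15 and 6.46 in TA38, TB38 and TC38, against 4.21, 4.19, 4.16, 4.11 and 3.86 in TA31, TB31, TC31, TD31 and TE31. The gap was 1.00, all cultures of line 3106 were near the low end of the scale, and the difference of 1.84 missed the threshold (limma adjusted p = 0.0736). The transcription factor ETS2 differed by 1.08, the selenoprotein-pathway enzyme SEPHS2 by 1.24, the lymphocyte receptor SLAMF7 by 1.28, and the desaturase SCD5 by 1.29. Other probe sets gave 0.60 for ETS2, 0.67 for SLAMF7 and 0.03 for SCD5. FOXF2, a forkhead factor of mesenchyme, was at 9.46, 9.45 and 10.47 in line 3806, against 8.75, 8.64, 8.50, 8.90 and 9.15 in line 3106, with TC38 well above the rest. FAM13C differed by 1.73, and by 1.01 without TA38, its highest culture at 7.18.

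Among the separating genes lower in line 3806 without a call, the largest difference was that of GPX7. GPX7, a peroxidase of the endoplasmic reticulum, was at 4.66, 8.48 and 7.73 in TA38, TB38 and TC38, against 9.59, 9.68, 9.16, 9.64 and 10.08 in TA31, TB31, TC31, TD31 and TE31. TA38 stood far below the other cultures, and the difference of −2.67 became −1.52 without it. ANKRD29 differed by −1.93, PRELID2 by −1.89, the phospholipase PLAAT1 by −1.61, the transcription factor EBF2 by −1.56 and the lysosomal chitobiase CTBS by −1.41. TIGAR, a phosphatase that restrains glycolysis, was at 8.07, 7.90 and 8.15 in line 3806, against 9.80, 8.93, 9.36, 8.98 and 8.97 in line 3106, a difference of −1.17 (limma adjusted p = 0.185) with no overlap.

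The aggrecanases ADAMTS4 and ADAMTS5, which cut cartilage proteoglycan, went in opposite directions, as seen after the values were known. ADAMTS4 was at 8.10, 7.74 and 8.75 in TA38, TB38 and TC38, against 7.28, 6.96, 6.05, 6.53 and 7.59 in TA31, TB31, TC31, TD31 and TE31. ADAMTS5 was at 7.45, 6.36 and 6.78 in line 3806, against 7.82, 8.97, 8.80, 9.00 and 8.78 in line 3106. Neither overlapped between the lines, and neither was called, with limma adjusted p of 0.596 for a difference of 1.32 and 0.202 for −1.81. The other probe set of ADAMTS4 gave −0.03.

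Imprinted genes included 2 that separated the lines among 17 measured, beside 4.1% of all genes, with a list median of −0.00 against 0.017 over all genes, and none was called. MEST, expressed from the paternal copy in mouse and human, was at 12.53, 12.81 and 12.91 in TA38, TB38 and TC38, against 12.38, 12.37, 11.31, 11.72 and 10.45 in TA31, TB31, TC31, TD31 and TE31. The lines lay only 0.15 apart, and TE31 was lowest. IGF2R, the receptor that carries the growth factor IGF2 to lysosomes, was at 8.28, 9.62 and 10.32 in line 3806, against 11.56, 11.69, 11.35, 11.20 and 10.77 in line 3106. It did not overlap and differed by −1.91 (limma adjusted p = 0.342), and by −1.87 on its other probe set. IGF2 itself differed by −1.09 and DLK1, an imprinted growth regulator, by −1.46, both with overlapping cultures and with adjusted p of 0.94 and 1.00.

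Of 12 measured X genes known in human to escape inactivation, 8 had a higher mean in the female line, and 5 of them had cultures that did not overlap, all higher in line 3806, beside 4.1% of all genes in either direction. Their median difference was 0.32, against 0.02 over all 590 X genes and 0.02 over autosomal genes, and none was called. EIF2S3, a subunit of translation initiation factor eIF2, averaged 10.18 ± 0.27 (SD, n = 3 cultures) in line 3806 and 9.37 ± 0.16 (n = 5) in line 3106, with 0.44 between the nearest cultures and a difference of 0.81 (limma adjusted p = 0.172). The RNA helicase DDX3X differed by 0.60, TXLNG by 0.66, the transcription factor ZFX by 0.47 and the histone demethylase KDM5C by 0.31. SRY, the testis-determining gene of the Y chromosome, differed by 0.10, at 6.45 to 6.52 in the female line and 6.35 to 6.48 in the male line. These values overlap near the array medians, so the SRY signal did not tell the sexes apart. Between the ESC lines EIF2S3 ran the other way, at 9.55 and 10.81 in C3806a and C3806b. It was at 10.82, 11.34 and 10.38 in C3106b, C3106c and C3106d, and that difference of −0.66 was not called.

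MHC and interferon genes held 25 measured members with a median of 0.07 and no call. BST2, an interferon-induced antiviral protein also called tetherin, separated the lines, at 8.87, 8.84 and 9.28 in TA38, TB38 and TC38 against 8.26, 8.04, 7.92, 8.04 and 8.51 in TA31, TB31, TC31, TD31 and TE31. The difference was 0.84 (limma adjusted p = 0.20). MAMU-AG, a nonclassical MHC class I gene of the rhesus placenta that was not on that list, was at 12.36, 12.46 and 11.88 in line 3806 against 10.98, 11.05, 10.88, 11.03 and 11.66 in line 3106. It did not overlap and differed by 1.12 (adjusted p = 0.202), and by 0.11 on its other probe set. MHC genes occur in many near-identical copies, so the gene behind such a signal is uncertain.

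Lists of tissue and cell state gave no call. In fibroblast matrix (31 measured, median 0.00) the largest difference was −1.16 for FMOD, a collagen-binding proteoglycan, and in mesenchymal identity (14 measured, median −0.02) 0.97 for MME, a surface peptidase. HOX genes (26 measured, median −0.01) were led by HOXD13, a factor of the distal limb, whose 1.30 came from TA38, at 10.04 against 6.44 and 6.34 in TB38 and TC38 and 5.90 to 7.38 in line 3106. Of 30 other position factors (median 0.04) FOXF2 was the one with separate cultures, a share near the 4.1% of all genes. MEOX2, a homeobox factor of somites that was picked out after its values were seen, was at 3.80, 3.29 and 4.40 in TA38, TB38 and TC38, against 5.57, 8.48, 8.51, 9.10 and 3.76 in TA31, TB31, TC31, TD31 and TE31. It overlapped only through TE31, and its −3.25 was not called (limma adjusted p = 0.84).

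Skeletal muscle (21 measured) had a median of −0.22, and its largest difference of −1.89 was for the muscle factor MYF5, which was high only in TB31 and TD31, at 8.40 and 9.46, and at 4.16 or less elsewhere. Neural and neural crest genes (19 measured, median 0.09) were led by SOX2, a factor of neural progenitors, at 9.37, 10.90 and 8.94 in line 3806, against 10.33, 4.81, 7.90, 4.78 and 5.02 in line 3106. TA31 reached the level of line 3806, and the difference of 3.17 was not called (limma adjusted p = 0.885). Other probe sets of SOX2 gave 0.50 and 0.43. SOX2 was low in the same 3 cultures of line 3106 as PAX6.

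The remaining lists stayed near the median of all genes. Smooth muscle (13 measured) had a median of 0.01, cartilage, bone and tendon (13) 0.00, adipocyte (7) −0.06, endothelium (10) 0.04, epithelium and keratinocyte (14) 0.09 and leukocyte (9) −0.04. Pluripotency (12) had a median of 0.04, cell cycle (22) −0.10, senescence and inflammation (12) 0.01 and glutathione transferases (13) −0.10. The member that differed most was SOX2 in the pluripotency list, at 3.17 as given above, TEK, an endothelial receptor, at −1.97 in endothelium, COMP, a cartilage matrix protein, at −1.47 in cartilage, bone and tendon, and the chemokine CXCL8, at 1.31 in senescence and inflammation. Among glutathione transferases it was GSTK1 at −0.69, and none of these genes was called. The other probe set of TEK gave 0.10. Over all 23 lists, 19 held no called gene and 4 held 1 each, which were the genes given as markers and so known beforehand.

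**Figure D3:**
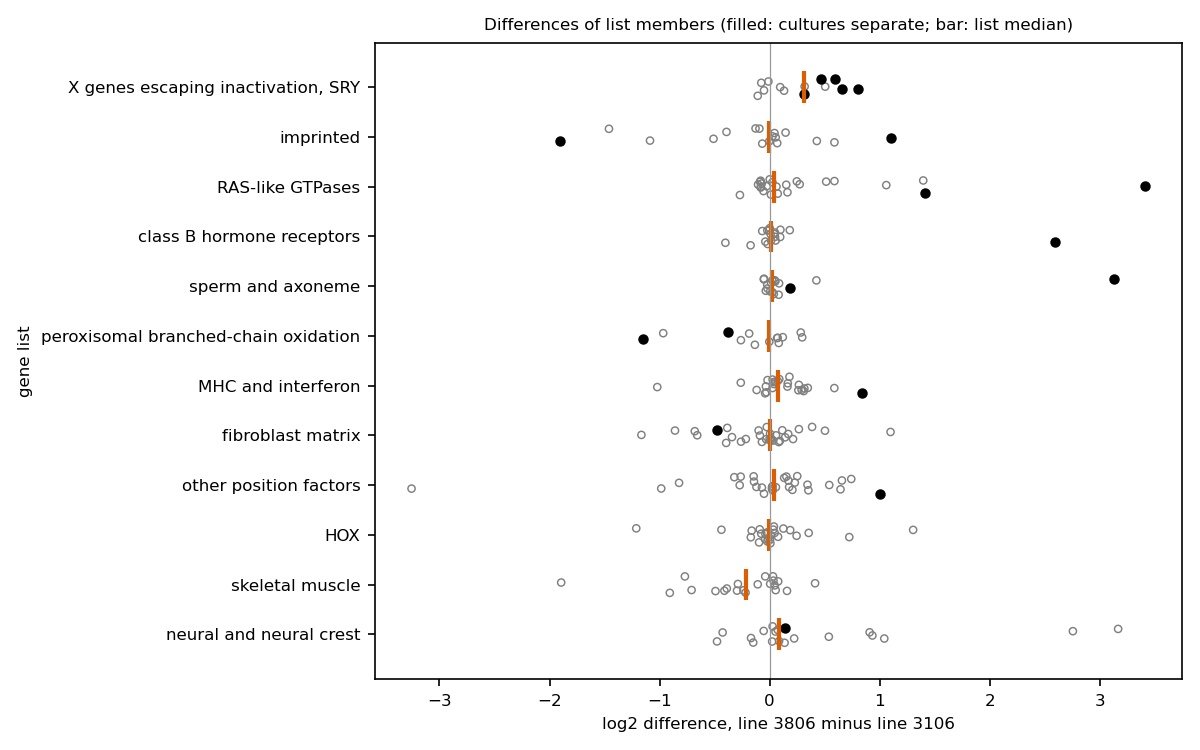
Each point is a measured gene of 1 of 12 lists, placed by its log2 difference, line 3806 minus line 3106. Filled points are genes whose culture means do not overlap, and orange bars are list medians. RIT2 at 3.41, SPMAP2 at 3.13 and PTH2R at 2.59 stand alone in their lists. Of the 12 X genes 8 lie to the right of 0, and the list median is 0.31 when SRY is counted with them.

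No gene next to a called gene on the chromosome was itself called. Over all genes 0.0425% were called higher and 0.0212% lower, so a set this small is likely to hold no call. Some neighbours were also dim in both lines, such as UNC80 at 3.12 and TTC23L at 4.21. The 3 nearest measured genes on each side were looked up for all 9 in the RefSeq gene table, which gave 2 on one side for SPMAP2. The largest differences were 0.73 for KRT7 beside KRT81, −0.59 for C1QTNF3 beside AMACR, 0.52 for IDH1 near PTH2R and 0.50 for MAGT1 near ATP7A. All neighbours of SPMAP2 and RIT2 differed by 0.31 or less in size.

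Across the 13 sources, whose means share teratoma, ESC and skin cells, the genes most like each marker were named by Pearson correlation, as a description. RIT2 was most like DIRAS2 (r = 0.89), and PTH2R most like RIT2 (r = 0.87) and then KRT81 (r = 0.80). SPMAP2 was most like CHCT1 (r = 0.89), which ranged over only 0.24 log2 units, and had r = 0.86 with RIT2. AMACR was most like ME2, the mitochondrial malic enzyme, with r = 0.95 although ME2 differed by −0.50 between the lines.

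The ESC lines from which the teratomas came gave a comparison that shares no array with the cultures. There is 1 source per ESC line, so its test measures the spread between arrays only. With arrays C3806a and C3806b against C3106b, C3106c and C3106d, 153 genes were called in either direction (1.08% of all genes). Of the 9 genes called between the teratoma fibroblasts, 5 were called between the ESC lines, each in the same direction: SPMAP2 by 2.58, RIT2 by 1.08, PTH2R by 1.06, AMACR by −1.09 and ZNF534 by −2.88, with limma adjusted p from 0.00139 to 0.0107. PTH2R was at 5.25 and 6.58 in C3806a and C3806b, against 4.85, 5.15 and 4.58 in C3106b, C3106c and C3106d. Its difference thus came mostly from C3806b. In the same order of arrays, RIT2 was at 7.67 and 6.59 against 5.51, 6.51 and 6.10, mostly through C3806a. AMACR was at 6.69 and 7.76 against 8.55, 7.71 and 8.67, with C3806b about level with C3106c. A fit without C3806a keeps 1 array of line 3806. The actin 3′ minus 5′ gap was 3.89 in C3806a and 0.76 in C3806b, against 0.60, 0.26 and 0.74 in C3106b, C3106c and C3106d, and without C3806a only SPMAP2 and PTH2R, 2 of the 9, were called. KRT81 differed by 0.04 and was between 7.02 and 7.25 in all 5 ESC arrays, below every fibroblast culture of either line. VIL1 differed by 0.26.

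The array labelled C3106c stood on the side of line 3806 for many of these genes. SPMAP2 was at 9.82 and 10.07 in C3806a and C3806b, against 6.28, 9.84 and 5.99 in C3106b, C3106c and C3106d. ZNF534 was at 4.41 and 4.29 in C3806a and C3806b, against 8.55, 4.02 and 9.14 in C3106b, C3106c and C3106d. In both genes C3106c matched the other line and not its own label. Across whole profiles, however, C3106c correlated at up to 0.990 with its own source and at 0.988 with C3806b. Of the 30 autosomal genes that separated the teratoma lines, 11 differed by at least 1 with no overlap between C3806a and C3806b on one side and C3106b and C3106d on the other, all 11 in the direction of the teratoma fibroblasts. C3106c lay nearer to C3806a and C3806b in 9 of the 11, and in 145 of the 215 autosomal genes that met this condition. Without C3106c, with only C3806a and C3806b against C3106b and C3106d, 246 genes were called between the ESC lines (1.74% of all genes), 7 of the 9 among them. This fit leaves out the array that stood on the side of line 3806 for many of these genes, so its calls there are no further support. The difference of SPMAP2 was then 3.81 (SE 0.16), against 2.58 with C3106c, and that of ZNF534 −4.49, against −2.88. ERAP1 and ATP7A joined the calls at 1.03 and −1.08. Why C3106c went against its label at these genes was not tested.

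Further genes that separated the teratoma cultures without a call were called between the ESC lines. PLAAT1 was at 7.23 and 6.53 in C3806a and C3806b, against 9.16, 6.70 and 9.36 in C3106b, C3106c and C3106d, and CTBS at 3.81 and 3.47 against 5.97, 3.31 and 6.24. Their ESC differences of −1.52 and −1.53 were called (limma adjusted p = 0.0174 and 0.0225), and again C3106c alone of its line was low. Of the 30 genes, 7 were called between the ESC lines with C3106c and 11 without it, all in the direction of the teratoma fibroblasts. The fit without C3106c drops the array that went against the difference at many of these genes. Over all 14132 genes the calls with C3106c ran 82 in that direction and 71 in the other. Without C3806a, 5 of the 30 were called in that direction and EBF2 in the other, and CTBS lost its call. The sign was the same in 22 of the 30 genes with all 5 ESC arrays, and in 7403 of all genes. GPX7, IGF2R, MEST and L3HYPDH, in contrast, differed by −0.08, 0.27, 0.15 and −0.14 between the ESC lines and were not called.

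In skin fibroblasts of the lines' parents the nearer line mean was more often that of line 3106, also where skin lay outside both lines. SPMAP2 was at 6.18, 6.26 and 6.25 in the skin cultures M032, M088 and M106p1, RIT2 at 5.40, 5.35 and 5.35, and KRT81 at 7.88, 8.30 and 8.53. All 3 genes were thus within or below the range of line 3106 in every skin culture. PTH2R was at 5.34, 6.50 and 5.16, with M088 between the lines, and ATP7A at 7.08, 8.59 and 6.41, spanning both. For 17 of the 30 autosomal genes all 3 skin cultures lay nearer to the mean of line 3106, and for 1 gene, VIL1 at 9.22, 8.73 and 8.82, all 3 lay nearer to line 3806. The labels do not tie these animals to single lines.

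**Figure D4:**
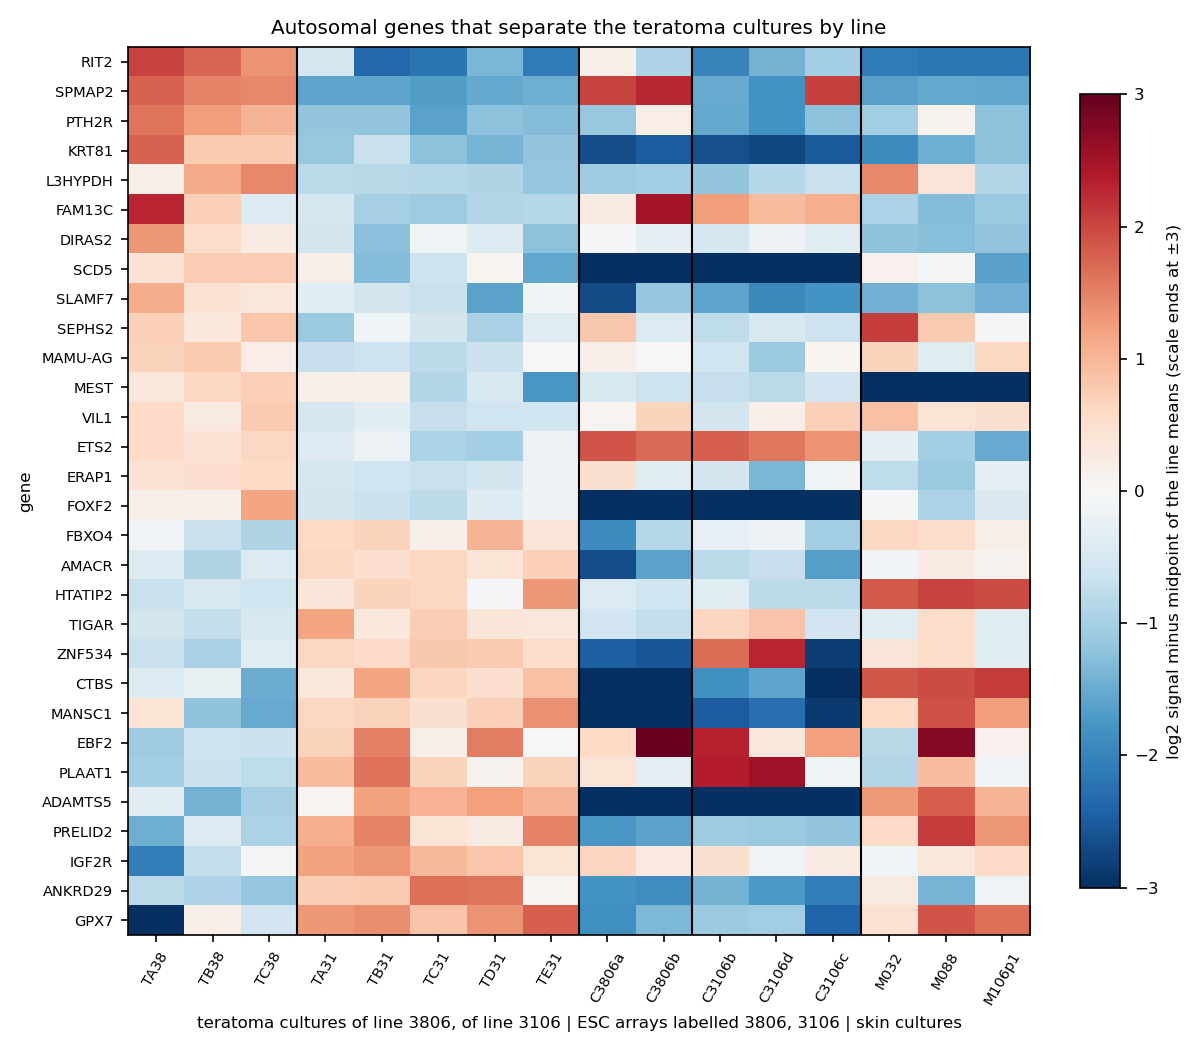
Rows are the 30 autosomal genes that separate the teratoma lines, and columns are teratoma culture means of line 3806 and line 3106, ESC arrays labelled 3806 and 3106, and skin culture means. Colour is the log2 signal minus the midpoint of the means of the teratoma lines, red above and blue below, with the scale ending at ±3. The ESC array C3106c shows the colour of line 3806 for SPMAP2 (9.84) and ZNF534 (4.02).

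The choice of probe set mattered for the largest differences between the lines. When each gene was represented by its most variable probe set in place of its brightest, 17 genes were called (0.12% of genes), 14 of them autosomal. All 8 autosomal calls of the brightest probe sets were among these 14, and 6 were added, named here after their values were seen. The largest difference of all was in RERE, a nuclear corepressor of the atrophin family on chromosome 1 (probe set MmuSTS.2297.1.S1_at). It was at 4.30, 4.41 and 4.24 in TA38, TB38 and TC38, against 10.78, 11.02, 10.84, 10.73 and 10.07 in TA31, TB31, TC31, TD31 and TE31, near the low end of the scale in one line and bright in the other. The difference was −6.37 (SE 0.20, limma adjusted p = 7.97e-06), while the 4 other probe sets of RERE gave 0.01 to 0.10. The same probe set was at 4.30 and 4.14 in C3806a and C3806b, against 10.60, 4.30 and 10.99 in C3106b, C3106c and C3106d, and at 4.49, 4.58 and 10.07 in the skin cultures M032, M088 and M106p1. Every source was thus either below 5 or above 10, except that the C3106 arrays were split, with C3106c low.

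HTATIP2, an oxidoreductase on chromosome 14 that also separated the lines on its brightest probe set at −1.16, had the next largest fall. It was at 3.27, 3.58 and 4.43 in TA38, TB38 and TC38, against 7.79, 8.20, 8.21, 6.82 and 8.96 in TA31, TB31, TC31, TD31 and TE31. The difference was −4.24 (SE 0.46, limma adjusted p = 0.0213), and the 2 remaining probe sets gave −1.51 and −0.19. In the ESC arrays the same probe set was low on both sides, at 4.03 and 4.43 in C3806a and C3806b and 4.28, 4.52 and 4.09 in C3106b, C3106c and C3106d, and in the skin cultures it was high, at 9.79, 9.96 and 9.78. The ESC means differed by 0.05 there, so the large difference of HTATIP2 was measured in the fibroblasts only among these comparisons.

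MAMU-A, a classical MHC class I gene on chromosome 4, was at 10.73, 10.72 and 9.78 in TA38, TB38 and TC38, against 6.81, 6.63, 6.02, 6.06 and 7.60 in TA31, TB31, TC31, TD31 and TE31. The difference of 3.79 (SE 0.40, limma adjusted p = 0.0162) stood beside 0.06 on the brightest probe set of the gene. OPA1, a mitochondrial dynamin, differed by −1.32 on this probe set and by 0.01 to 0.31 on its 5 others. The sulfate transporter SLC26A2 differed by −1.47, with −1.18 to 0.65 on its 4 others, and C6H5orf24 by −1.76, with −0.38 to −0.01 on its 3 others. In RERE, MAMU-A, OPA1, SLC26A2 and C6H5orf24 C3106c lay nearer to C3806a and C3806b than to C3106b and C3106d, while in HTATIP2 the ESC sides did not differ enough to place it. Whether sequence differences between the animals under single probes, or transcript forms, lie behind such split probe sets was not tested.

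**Figure D5:**
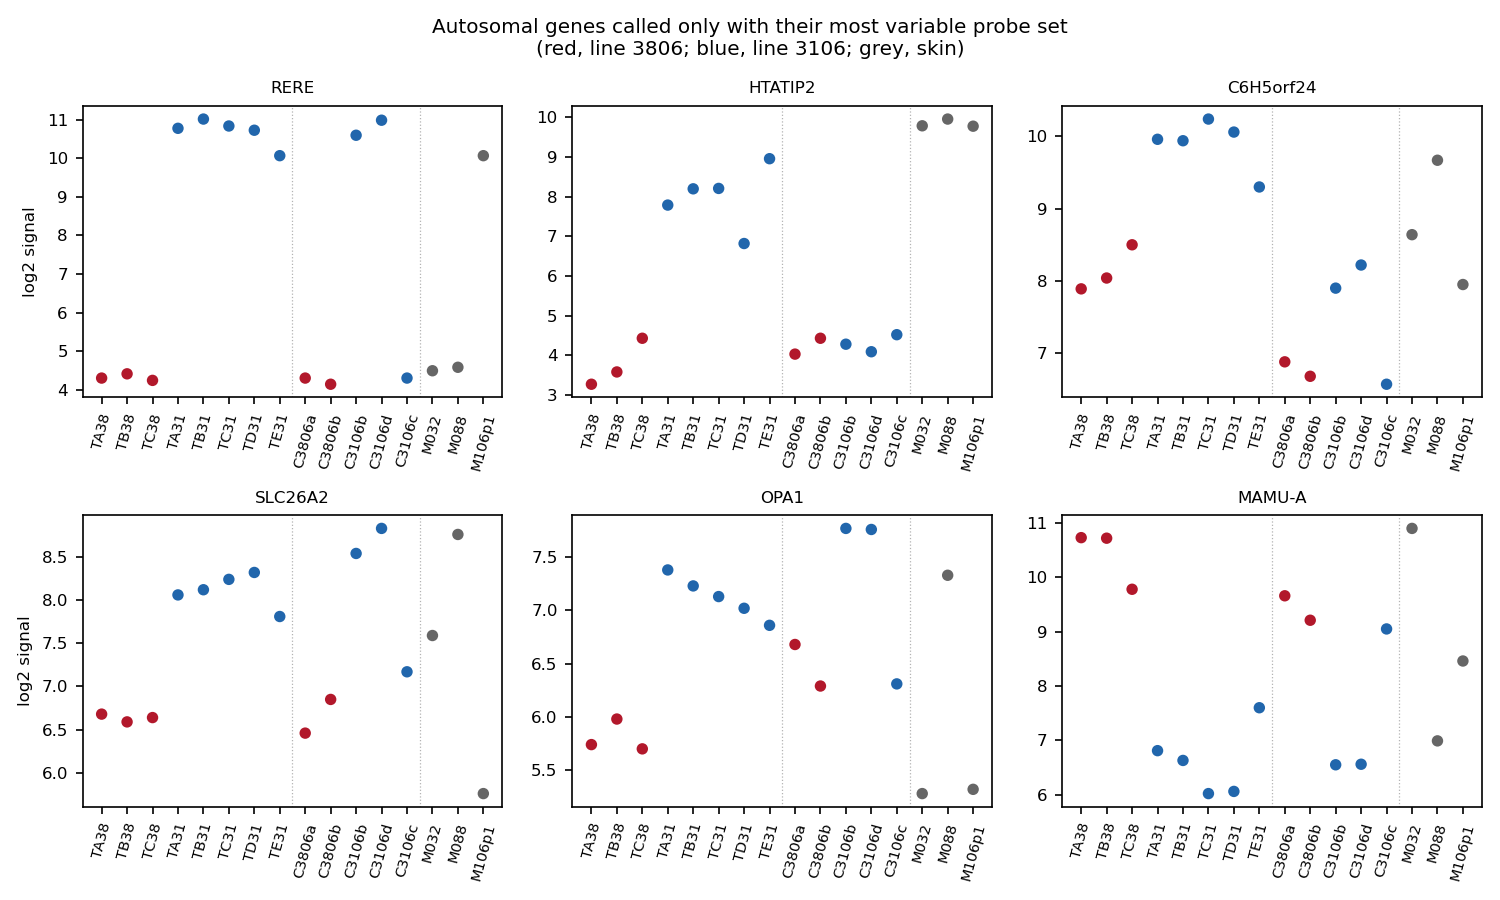
Points are log2 signals of the most variable probe set of 6 autosomal genes, as means of teratoma and skin cultures and as single ESC arrays, on axes that do not start at 0. Line 3806 is red and stands left of line 3106 in blue within teratoma cultures and within ESC arrays; skin cultures are grey. In RERE the red points and C3106c lie between 4.14 and 4.41, while the other blue points lie between 10.07 and 11.02.

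Other probe sets were also compared for the 32 separating genes on their brightest probe set. Of these genes, 18 had a single probe set, among them SPMAP2, RIT2, PTH2R and KRT81. Of the 14 with another, 5 had one that also differed by at least 1 in the same direction, including ERAP1, AMACR, IGF2R and HTATIP2, and 7 had one within 0.2 of 0.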

How the data were processed

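Messenger RNA was measured on single-colour oligonucleotide arrays. The authors deposited log2 signals, 1 per probe set and array, made with GCOS and RMA per the submitters' processing notes; no version is given in the sources used here. Of 52865 probe sets, 25330 had an entry in the platform's annotation table, 361 of them with several gene names. Without controls, 24956 had 1 gene name. These covered 14132 genes, of which 6375 had more than 1 probe set; the brightest one on average was used. The RefSeq gene table of T2T-MMU8v2.0 gave chromosomes for 13945 genes and the neighbours; no coordinates were used. No sample column was left unused.

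Means of 8 teratoma cultures entered limma 3.58.1, run in R 4.3.3 (6 residual degrees of freedom, two-sided). The ESC lines were compared in limma on arrays with 13 sources as groups, without TB31c, C3806c and M106p1f. The fit was tested on simulated data.

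The members and the 23 gene lists were chosen with earlier results of these data known. Genes named were the 4 given markers, the 10 largest called autosomal genes each way, the 10 separating autosomal genes with the widest gap each way, up to 3 genes per list, the neighbours and the 5 most similar genes; 13 more and those called only with the most variable probe set, MEOX2 and further list members were named after their values were seen.

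The alternatives included TB31c, all 13 sources, arrays with the culture or letter as a block, another probe set per gene, a filter at a mean of 6, another variance estimate and fewer cultures.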

Additional observations from a re-analysis of the deposited data

Results flagged for a closer look

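Single cultures stood apart from the others of line 3106 in 6 of the 52 groups of 5 checked. For a single group chance alone gives a mark in about 1 of 20. The groups share the same cultures and hold genes picked for their differences, so no excess over chance can be read from the count. TE31 was high for ERAP1 at 8.76, HOXD13 at 7.38, MAMU-AG at 11.66 and MANSC1 at 9.66, and low for L3HYPDH at 3.86. TA31 was low for ADAMTS5 at 7.82. For 2 genes that separated the teratoma cultures, all ESC arrays used lay the opposite way round. FOXF2 was higher in teratoma cultures of line 3806 but differed by −0.31 between the ESC lines, and ADAMTS5 was lower in teratoma cultures of line 3806 but differed by 0.13 between the ESC lines. The difference between these effects was not tested, and both genes were dim in ESC arrays, at 4.14 to 5.76.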

How the results depend on the processing

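With 6 autosomal genes called higher and 2 lower in line 3806, the counts were 22 and 23 with arrays fitted and the culture as a random block, and 18 and 19 with the letter as a replicate block as well. Letters a to c did not pair the arrays: the median correlation of residuals was 0.03 (−0.54 to 0.57) for the same letter and −0.02 for other letters. Without TB31 and TD31 the counts were 2 and 0. With the most variable probe set 7 were called lower, and with TB31c 1. Leaving out each culture in turn gave 2 to 4 called higher and 0 to 1 called lower. It also gave 16 to 38 genes higher and 16 to 44 lower that did not overlap and differed by at least 1, against 16 and 14. That lower count was 22 with the most variable probe set and 25 without TB31 and TD31, where fewer cultures have to separate. Between the ESC lines 5 of the 9 genes were called, and 2 without C3806a. Of 875 values of 52 named genes under 17 settings, 763 kept direction and side of the threshold, 57 fell below it and 52 passed it. Reversed were MYF5 at 0.16 and LYZ at 0.00 without TB31 and TD31, and MYOCD, at −0.31 to 0.69 over the cultures left out and below 0 without TA38, none of them called. PTH2R fell under the filter on dim genes and has no value there. The cause of these changes was not tested.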
